A study of Mus musculus with 4 samples.

Results

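The regions described here are 2759 stretches of 1 kb of the mouse genome at which the DNA methylation level of Tet/Tet embryonic stem cells (ESCs) lay at least 20 percentage points below that of R1 ESCs. The mm10 genome was divided into tiles that start at multiples of 1000 bp, and a tile was used when at least 5 of its CpG sites were listed in both ESC tables. A tile's level is the unweighted mean of the percent values of those sites. Of 103856 such tiles, 2759 were members, which is 2.66%. A tile has to reach 20% in R1 ESCs before it can fall so far, and the members made up 4.44% of the 62158 tiles that did. In the other direction, 5443 tiles, or 5.24%, were higher in Tet/Tet ESCs by at least 20 points. The ESC levels chose the members, so they are given as a description. Both neuron libraries are readings that the rule did not use.

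R1 is the wild-type line. Tet/Tet cells were made from R1 by inserting tet-off constructs at Dnmt1, behind its promoter, and overexpress DNMT1. Per the labels, Tet/Tet ESCs were grown with puromycin at 1 µg/ml and neomycin at 150 µg/ml. Neurons of each genotype were derived from these lines through embryoid bodies over 2 days and a neural medium for 10 to 15 days per the labels. Each of the 4 conditions had 1 library, so no difference could be set against replicate spread or tested. The ESC libraries came from one sequencing project and the neuron libraries from another, so cell type and project cannot be told apart. The tables hold no read counts, so the depth behind a value is unknown. No expression was measured in these files, so the labelled cell types could not be set against marker genes. Tet/Tet neurons were not analysed here on chromosomes 8 and 9, on chromosome 7 after its base 55762981 and on chromosome 10 up to its base 128096803, a part that holds 539 of the members.

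In mammals, methyl groups are carried mainly by cytosines of CpG dinucleotides. DNMT1 copies the pattern onto the new strand after DNA replication, DNMT3A and DNMT3B place new marks, and TET enzymes start their removal. Most promoters that lie in CpG-rich stretches, called CpG islands, stay free of methylation, while gene bodies and repeats are usually methylated. Reduced representation bisulfite sequencing (RRBS) cuts DNA with MspI at CCGG and so samples mostly CpG-rich fragments. Bisulfite turns unmethylated cytosines into bases read as thymine, and a site's level is the percent of reads that still report cytosine.

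The windows below show the base composition of the members that rest on many sites or lie at a gene start. Each is forward-strand mm10 sequence of at most 300 bases from within a member, outside annotated untranslated regions, and the CpGs listed in both ESC tables are in capitals. The first is part of a coding exon of Zfp553, the next pair are soft-masked repeats between genes, and the last lies just inside the start of Zfp872.
Zfp553, chr7:127235693-127235981: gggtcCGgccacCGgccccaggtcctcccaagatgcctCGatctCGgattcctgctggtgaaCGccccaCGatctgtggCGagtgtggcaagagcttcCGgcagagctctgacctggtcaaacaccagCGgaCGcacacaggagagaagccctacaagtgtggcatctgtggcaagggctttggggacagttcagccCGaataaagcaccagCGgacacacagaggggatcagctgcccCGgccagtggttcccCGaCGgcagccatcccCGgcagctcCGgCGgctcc
Nearest start Mup15, chr4:61409010-61409296: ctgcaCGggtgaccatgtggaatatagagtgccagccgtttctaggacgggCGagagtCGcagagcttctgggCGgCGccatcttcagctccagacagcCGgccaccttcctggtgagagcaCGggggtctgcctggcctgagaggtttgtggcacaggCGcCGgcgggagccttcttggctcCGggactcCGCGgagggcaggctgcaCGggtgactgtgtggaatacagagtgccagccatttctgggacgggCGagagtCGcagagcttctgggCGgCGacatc
Nearest start Npbwr1, chr1:5820117-5820416: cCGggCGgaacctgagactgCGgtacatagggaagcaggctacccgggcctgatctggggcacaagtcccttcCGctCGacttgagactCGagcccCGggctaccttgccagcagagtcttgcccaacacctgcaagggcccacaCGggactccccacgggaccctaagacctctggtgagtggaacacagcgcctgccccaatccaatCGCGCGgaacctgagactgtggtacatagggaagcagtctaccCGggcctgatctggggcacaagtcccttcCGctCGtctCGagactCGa
Zfp872, chr9:22188367-22188558: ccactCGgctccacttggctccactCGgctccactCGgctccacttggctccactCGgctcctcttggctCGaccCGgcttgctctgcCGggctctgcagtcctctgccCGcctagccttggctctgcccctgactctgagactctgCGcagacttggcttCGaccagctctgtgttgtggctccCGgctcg

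The Zfp553 window holds 18 of the sites that the member rests on, with a mean of 28.6% for R1 and 6.68% for Tet/Tet ESCs. In the pair of repeat windows the mean was 49.3% against 15.7% near Mup15 over 17 sites, and 66.4% against 26.5% near Npbwr1 over 16 sites. Their tiles are named by the closest protein-coding gene start, which lies 30242 bp away for Mup15 and 96897 bp away for Npbwr1. At Zfp872, 11 sites averaged 32.3% for R1 and 7.06% for Tet/Tet ESCs.

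Over the 2759 members, the level was 62.6% ± 20.4 (SD over tiles) for R1 and 32.8% ± 19.9 for Tet/Tet ESCs, with a median difference of -26.4 points. Most members lay near the threshold. The fall was 20 to under 30 points in 1740 members, 30 to under 50 in 868 and 50 or more in 151. In R1 ESCs 660 members stood at 80% or above. In Tet/Tet ESCs 420 members were under 10%, and 124 of the members were at exactly 0. The plot of tile levels in both ESC lines shows the members as the outer edge of a broad band around equal levels, and not as a separate group.

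**Figure D1:**
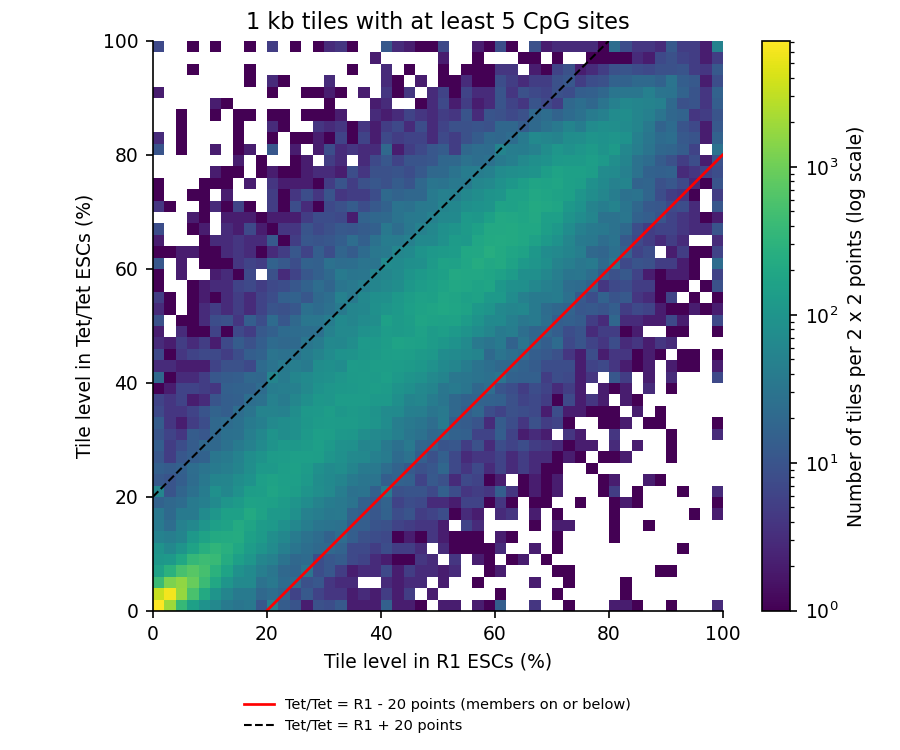
Tile levels in R1 ESCs (x axis, %) and Tet/Tet ESCs (y axis, %) for the 103856 tiles, as the number of tiles per square of 2 by 2 points on a log colour scale. The 2759 members lie on or below the solid line, and the 5443 tiles higher in Tet/Tet ESCs lie on or above the dashed line.

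The members rested on few sites. Their median number of sites was 6 and their highest 29, and 1859 of them, or 67.4%, held 5 or 6 sites. Only 230 members had 10 sites or more, and 12 had 20 or more. Among tiles at 20% or above in R1 ESCs, the share that were members was 6.41% with 5 sites, 4.75% with 6 sites, 3.62% with 7 to 9, 2.08% with 10 to 19 and 1.72% with 20 to 29. The 109 tiles with 30 or more sites held no member. The higher tiles were counted on another base, the tiles at 20% or above in Tet/Tet ESCs, and their share of it went from 10.6% with 5 sites to 3.75% with 20 to 29, and was 4.67% with 30 or more. The part that the number of sites plays in the falls was not tested.

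**Figure D2:**
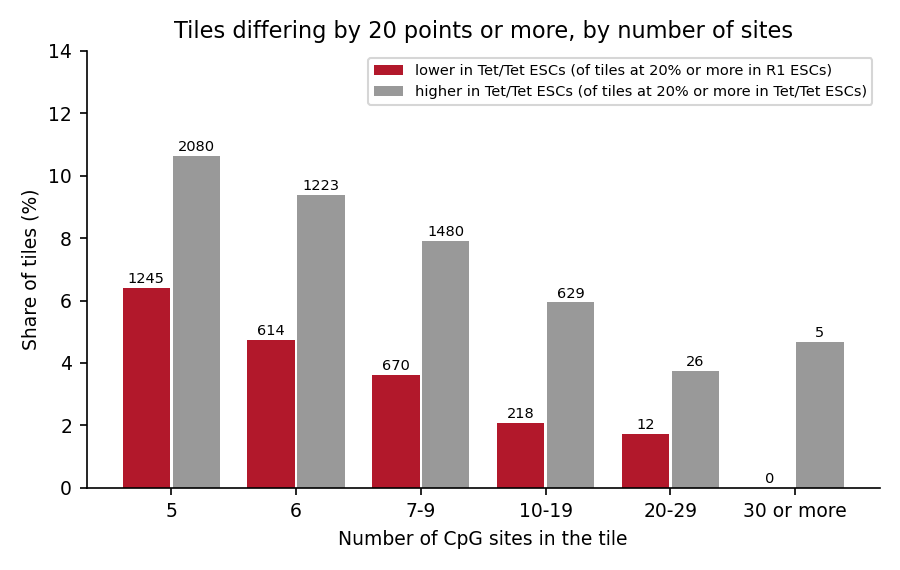
Share (y axis, %) of the tiles at 20% or above in R1 ESCs that were lower in Tet/Tet ESCs by 20 points or more (red), and of the tiles at 20% or above in Tet/Tet ESCs that were higher by as much (grey), by the number of CpG sites in the tile (x axis). The bases of the colours differ, and the number of lower or higher tiles stands above each bar. The red bars go from 6.41% for 5 sites to 1.72% for 20 to 29 sites.

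Within the members, sites often stood at an end of the scale. Of the 17977 member sites, 37.0% were at 100% in R1 ESCs and 31.8% were at 0 in Tet/Tet ESCs. For all sites in tiles at 20% or above in R1 ESCs these shares were 9.81% and 6.06%. Every site of the tile was lower in Tet/Tet ESCs in 441 members (16.0%), and at least 1 site was higher in 1535 members (55.6%). MspI fragments of 40 to 220 bp, taken as the size range that RRBS sequences, held 27.7% of member sites, against 50.3% of all sites in tiles at 20% or above in R1 ESCs. The mean difference of member sites was -18.8 points inside these fragments and -33.5 points outside them. The rule used these same values, so the shares are a description, and their part in the falls was not tested.

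Under the rule used, the members were spread over gene bodies and intergenic DNA much as other methylated tiles were. By the tile's midpoint, 6.49% lay within 1 kb of an annotated gene start, 56.8% lay elsewhere in a gene and 36.7% were intergenic. The same shares were 6.16%, 55.6% and 38.3% for all tiles at 20% or above in R1 ESCs. CpG islands, called on the sequence, held the midpoint of 68 members, which is 2.46%, against 1.77% of the tiles at 20% or above. These shares depend on the sites used. Members chosen with a minimum of 10 sites were 43.5% intergenic and 11.3% in islands, and those chosen only from sites inside MspI fragments of 40 to 220 bp 62.7% and 13.9%. No background of tiles chosen in the same ways is given here, so these shares cannot be set against the 38.3% and 1.77%. Median GC content was 48.8% and median CpG density 18 per kb, both in the 2759 members and in tiles at 20% or above. Of the members, 23.3% were mostly soft-masked repeat by length, against 22.7%. The location classes differed in ESC level. Members at promoters averaged 56.4% for R1 and 26.4% for Tet/Tet ESCs, those in gene bodies 62.7% and 32.9%, those between genes 63.4% and 33.7%, and those in islands 53.2% and 21.8%.

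Members occurred on each of the chromosomes analysed. Their share of the tiles at 20% or above in R1 ESCs ranged from 3.83% on chromosome 12 to 5.17% on chromosome Y, where 15 of 290 tiles were members, and was 4.50% on chromosome X. Divided into windows of 1 Mb, 1366 of the 2640 windows with such a tile held a member, and 101 windows held 5 or more. The highest number in a window was 11, reached on chromosome 4 from 141000001, on chromosome 7 from 25000001 and on chromosome 11 from 116000001. Of the tiles at 20% or above there, 9.57%, 13.4% and 8.53% were members. The window on chromosome 7 held 3 tiles that were higher by 20 points, and those on chromosomes 4 and 11 held 8 and 6.

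Clustering on a finer scale was slight. Members were joined where their starts lay at most 5 kb apart, which left 2622 alone, 66 pairs and 1 run of 5. Another member lay within 5 kb of 137 members (4.97%), and another higher tile lay within 5 kb of 336 of the 5443 higher tiles (6.17%). Higher tiles made up 5.24% of all tiles and members 2.66%, so these shares have unlike bases. Another tile of at least 5 sites, member or not, lay within 5 kb of only 54.8% of the members. The mean ESC difference of the 733 tiles at a distance of 1 kb from a member was -0.94 points, and that of the 2290 tiles at 2 to 5 kb was -0.20 points. These means include tiles that the rule itself chose as members, 48 of the 733 and 93 of the 2290. Around all tiles at 20% or above in R1 ESCs the mean was 1.81 and 1.13 points, with 467 members among 15531 tiles and 957 among 33631. Means without the members are not given here. Of the neighbours at 20% or above in R1 ESCs, 9.66% at 1 kb and 6.77% at 2 to 5 kb were members themselves, against the background of 4.44%, and the share was 4.26% at 6 to 10 kb. Without the run of 5 the first pair of shares was 8.92% and 6.43%.

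A subset chosen after its values were seen, the members with 10 or more sites, had neighbours with a lower mean. Their 80 neighbours at 1 kb averaged -4.71 points and their 204 neighbours at 2 to 5 kb -2.56 points, and from 6 kb on the means lay between -0.10 and 0.44 points. Of these neighbours, 14 of the 80 and 14 of the 204 were members themselves, which the rule chose for their fall. A mean without them is not given here, so a fall in neighbours that are no members is not shown. Tiles next to the higher tiles averaged 5.68 points at 1 kb and 1.88 points at 2 to 5 kb. Of those tiles, 12.8% and 5.61% were higher tiles themselves. The plot of neighbouring tiles by distance shows that each of these departures is largest at 1 kb.

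**Figure D3:**
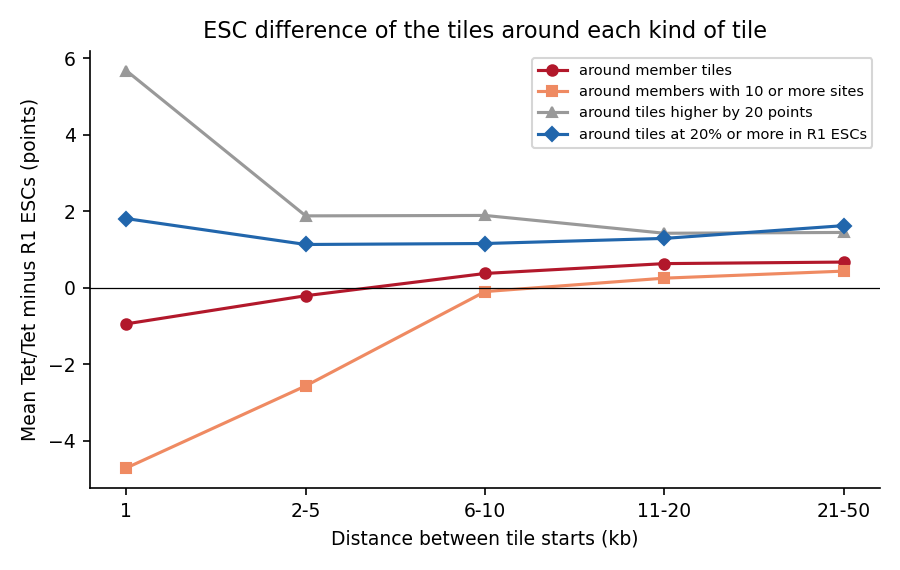
Mean Tet/Tet minus R1 ESC difference (y axis, percentage points) of tiles at a given distance (x axis, kb between tile starts) from members, from members with 10 or more sites, from tiles higher by 20 points and from all tiles at 20% or above in R1 ESCs. The line around members starts at -0.94 points and that around higher tiles at 5.68 points. Neighbours that are members or higher tiles themselves are included.

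The run of 5 members covered the end of Noc2l and most of Samd11 on chr4:156245001-156256000. NOC2L is an inhibitor of histone acetyltransferases, and SAMD11 is a protein with a sterile alpha motif. Each tile with at least 5 sites in this stretch was a member. The run averaged 68.1% for R1 and 37.0% for Tet/Tet ESCs, and 93.5% for R1 and 17.7% for Tet/Tet neurons. The tile with the start of Samd11 stood at 67.6% for R1 and 30.5% for Tet/Tet ESCs, and 95.4% for R1 and 7.97% for Tet/Tet neurons. All 6 of its sites were lower in Tet/Tet than in R1 ESCs, but unequally. The 2 sites at 100% in R1 ESCs were at 16.7% and 0 in Tet/Tet ESCs. The others went from 32% to 21.1%, from 64.5% to 57.7%, from 75.8% to 64.1% and from 33.3% to 23.5%. In the tile at 6.16 kb inside Samd11, 10 of 10 sites were lower, with 58.6% to 91.7% for R1 and 13.3% to 64.0% for Tet/Tet ESCs. Samd11 had 4 tiles in all, and their differences ran from -43.4 to -22.5 points. At the other end of the neighbouring gene, the tile with the start of Noc2l was at 0.85% and 0.94%.

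Mybl2, which encodes the cell cycle transcription factor B-Myb, held another of the named runs, a pair of members. In the tile from chr2:163074001, the 14 sites ranged from 33.3% to 93.3% for R1 and from 0 to 32% for Tet/Tet ESCs, so their ranges did not overlap. Its mean was 67.9% for R1 and 14.5% for Tet/Tet ESCs, and 93.1% for R1 and 22.1% for Tet/Tet neurons. The tile 5 kb further on went from 71.6% to 29.1% over 11 sites, all of them lower, and stood at 78% for R1 and 29.4% for Tet/Tet neurons. Both tiles lie in the gene body, 19.8 kb and 24.8 kb from the gene's start. The pair of tiles at the start differed by -0.61 and -0.42 points, from R1 levels of 3.08% and 2.64%. The plot of single sites shows the fall across these members and low levels in all 4 libraries at most sites near the Mybl2 start.

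**Figure D4:**
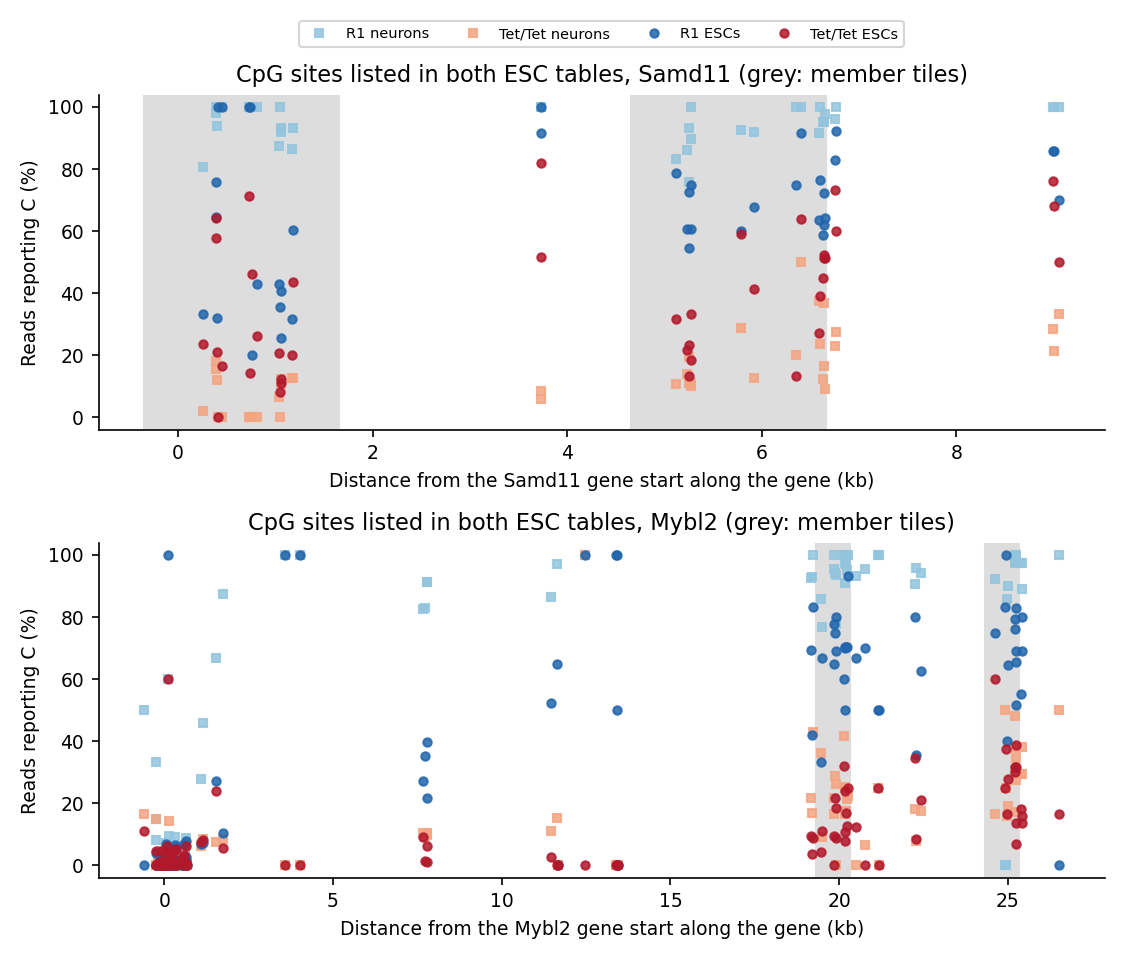
Percent of reads reporting cytosine (y axis) at each CpG site listed in both ESC tables, against distance from the gene start along Samd11 (top) and Mybl2 (bottom) in kb, for the R1 and Tet/Tet libraries of ESCs (circles) and neurons (squares). Grey bands are member tiles. In the band at 19.8 kb in Mybl2 the R1 ESC sites lie from 33.3% to 93.3% and the Tet/Tet ESC sites from 0 to 32%.

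The other runs named by the fixed rule were pairs. In Wdfy3, which encodes an adaptor of selective autophagy, the pair averaged 77.8% for R1 and 19.3% for Tet/Tet ESCs. This pair was the one with the highest level in Tet/Tet neurons, 56.7%, against 98.5% in R1 neurons. One of its tiles had 5 sites, all at 100% in R1 ESCs and 4 of them at 0 in Tet/Tet ESCs. In the other, 3 of 9 sites went from 100% to 0 and 1 was higher. A tile between them was no member, with 24.1% and 14.5%. Of the 26 Wdfy3 tiles 10 were under 20% in R1 ESCs, and 9 of the rest were lower in Tet/Tet ESCs. In Mical3, an actin-acting monooxygenase, adjoining tiles averaged 71.9% and 22.3% in the ESC lines, 97.1% for R1 and 26.4% for Tet/Tet neurons. In each of these tiles 2 sites went from 100% to 0. Their other sites averaged 50.6% and 28.6%, and 73.3% and 32.3%. Mical3 had 3 members among its 37 tiles, and another tile was 26 points higher in Tet/Tet ESCs. A pair in the non-coding gene 2210420H20Rik on chromosome 18 went from 62.0% to 18.1%, with 91.5% in R1 neurons.

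Of the 10784 protein-coding genes with a tile at 20% or above in R1 ESCs, 1420 had a member, which is 13.2%. The gene with the most, Gm20388, had 25, but its annotation spans 4435 kb of chromosome 8 across many other genes. Of its tiles 590 were at 20% or above, 39 were higher by 20 points, and the mean difference over all of them was 0.02 points. Fgfr2, a fibroblast growth factor receptor, had 12 in an annotation of 2961 kb that takes in all 5 members of Ctbp2. It had 110 tiles at 20% or above and also 12 that were higher by 20 points, and its mean difference was 0.09 points. Camta1, a calmodulin-binding transcription activator, had 7 of 97 tiles, with 5 higher by 20 points and a mean difference of 0.21 points.

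Ctbp2 and Hunk had members in a larger share of their tiles. Ctbp2, which encodes a transcriptional corepressor, had members in 5 of its 10 tiles at 20% or above in R1 ESCs. Its members averaged 61.6% for R1 and 28.3% for Tet/Tet ESCs, and 91.2% for R1 neurons. Of the 10 tiles, 9 were lower in Tet/Tet ESCs, and the exception was 9.68 points higher. Hunk, a protein kinase gene, had members in 4 of 10, with means of 68.0% for R1 and 33.0% for Tet/Tet ESCs, and 92.6% for R1 and 19% for Tet/Tet neurons. No tile of either gene was higher by 20 points, and the mean difference over all their tiles was -12.0 points in Ctbp2 and -13.6 points in Hunk. The genes were picked for their members, so these values are a description.

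Among the members with at least 20 sites, the largest fall was in a tile on chromosome X near the start of Pls3, which encodes an actin-bundling plastin. Its mean was 39.5% for R1 and 1.41% for Tet/Tet ESCs, and 7.02% for R1 and 1.21% for Tet/Tet neurons. The mean joined unlike sites. At 8 of the 21 sites the value was 100% for R1 and 0 for Tet/Tet ESCs, and at the other sites it was at most 6.00% and 9.17%.

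The tile in a coding exon of Zfp553, a zinc finger protein gene, was lower at each of its 29 sites, 27 of which are exonic. Its level was 31.3% for R1 and 7.51% for Tet/Tet ESCs, and 96.5% for R1 neurons, and the sites ranged from 17.1% to 66.7% for R1 and from 0 to 40% for Tet/Tet ESCs. The adjoining tile of Zfp553 was also a member, with 37.8% and 15.2%, while the pair of tiles at its start were at 9.11% and 3.03% in R1 ESCs and differed by -1.26 and -1.54 points.

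The other site-rich members were mostly repeats between genes. Of the 12 members with at least 20 sites, all but those in Pls3 and Zfp553 were intergenic. The tile near Mup15 was soft-masked over its whole length and went from 48.0% to 16.3%, with 12 of 20 sites lower, 93.0% for R1 and 31.5% for Tet/Tet neurons. The tile near Npbwr1, also wholly soft-masked, went from 69.3% to 38.1%. At 6 of its 26 sites the value was 100% for R1 and 0 for Tet/Tet ESCs, and the other 20 averaged 60.1% and 49.5%. This tile stood at 92% for R1 neurons over 16 sites. Tet/Tet neurons were at 54.4% over 23 sites, and at 36.0% over the 16 that R1 neurons also list. The reads of repeats can map to several copies, and how the authors' alignment placed them is not given in the sources used here.

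Among members that held the start of a protein-coding gene and at least 10 sites, the largest falls were at Ushbp1, a gene for a partner of the Usher syndrome protein USH1C, with 67.2% for R1 and 38.2% for Tet/Tet ESCs, and at Meltf, the melanotransferrin gene, with 41.7% and 15.7%. At Ushbp1, 3 of 10 sites went from 100% to 0 and the other 7 averaged 53.1% and 54.5%. At Meltf, 4 of 10 sites were at 100% in R1 ESCs and the others were at most 9.09%. Qrich2, a gene of the sperm flagellum, followed with 50.8% and 25.9%, then Gne, an enzyme of sialic acid synthesis, with 48.5% and 24.6%. In each of these tiles 2 of 10 sites went from 100% to 0. The other 8 averaged 38.5% and 32.4% at Qrich2, and 35.6% and 30.8% at Gne. Zfp872, a zinc finger protein gene, had 32.6% and 9.28% and was lower at 15 of 16 sites. R1 neurons were at 92.7% at Ushbp1, 48.6% at Meltf, 82.3% at Qrich2, 95.5% at Gne and 76.2% at Zfp872. Tet/Tet neurons were at 14.9% at Meltf, 17.9% at Qrich2 and 7.90% at Gne, and were not analysed at the other genes of this group.

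Genes of 6 lists were then looked up, and each list's count is set beside the 13.2% of all protein-coding genes with a member. Among imprinted genes, which are expressed from the copy of 1 parent, 3 of the 23 with a tile at 20% or above had a member. At Peg3, a paternally expressed zinc finger gene, the tile beside the start stood at 40% for R1 and 3.64% for Tet/Tet ESCs, and 36.5% for R1 and 0 for Tet/Tet neurons, but only 2 of its 5 sites were lower in Tet/Tet ESCs, both from 100% to 0. Gnas had a tile with 55.9% and 34.7%, and Airn, the non-coding transcript of the Igf2r domain, had 1 with 56.5% and 32%. The median difference of the 72 tiles at 20% or above in imprinted genes was 7.24 points, and 21 tiles of the list were higher by 20 points.

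Pluripotency genes had members in 2 of 7, with a median difference of 2.55 points over 21 tiles at 20% or above and 1 tile higher by 20 points. In Esrrb, an orphan nuclear receptor of the ESC state, a tile 141 kb inside the gene went from 73.6% to 4.02%. At 4 of its 6 sites the value was 100% for R1 and 0 for Tet/Tet ESCs, and R1 neurons were at 98.5% and Tet/Tet neurons at 12.8%. The adjoining tile of Esrrb stood at 7.32% for R1 and 3.70% for Tet/Tet ESCs. Klf5, a Krüppel-like factor of the ESC network, had 2 members, 11.8 kb and 14.8 kb inside the gene. That with the most sites went from 30.5% to 2.30% with 12 of 13 sites lower, and stood at 97.1% for R1 and 14.3% for Tet/Tet neurons. The tiles at the Klf5 start were at 0.96% and 1.26% in R1 ESCs.

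Germline genes, many of which are silenced by promoter methylation in somatic cells, had members in 4 of 17. None of these 4 tiles lay at the start of its gene. They lay 6882 bp inside Piwil2, 9338 bp inside Stra8, 77436 bp inside Tex14 and 4404 bp inside Zpbp2. Piwil2, of the piRNA pathway, had a tile with 86.7% for R1 and 38.7% for Tet/Tet ESCs, 100% for R1 and 16.9% for Tet/Tet neurons. Stra8, needed for entry into meiosis, had 80% and 46.7%. Tex14, of the germ cell bridges, had 35.1% and 12.8%, and Zpbp2, a zona pellucida binding protein gene, had 62.8% and 41.0%. At Tex14 2 of 9 sites went from 100% to 0, and the other 7 averaged 16.6% and 16.4%. At Zpbp2 1 site did so, and the other 6 averaged 56.6% and 47.8%. The Piwil2, Stra8 and Zpbp2 tiles rest on 5, 5 and 7 sites, and at Piwil2 3 sites went from 100% to 0 while the other pair averaged 66.7% and 96.7%. The list had 4 members and 5 tiles higher by 20 points, with a median difference of 4.59 points over its 38 tiles at 20% or above.

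The genes of the methylation machinery had members in 4 of 12. Dnmt3b had 3 members among its 6 tiles at 20% or above. Each of these rests on 5 sites, with 60%, 100% and 80% in R1 ESCs and 6.67%, 60% and 31.1% in Tet/Tet ESCs. Another Dnmt3b tile was 21.3 points higher in Tet/Tet ESCs. In Dnmt3a, a tile near the end of the gene went from 62.9% to 27.8% over 14 sites. At 5 of these the value was 100% for R1 and 0 for Tet/Tet ESCs, and the other 9 averaged 42.3% and 43.2%. The tile stood at 95.1% for R1 and 18% for Tet/Tet neurons. Dnmt1 had 1 member, with 45.0% and 17.2%, in which 3 of 8 sites went from 100% to 0 and the other 5 were higher, with means of 12.0% and 27.6%. Tet3 had 1 with 64.6% and 43.9%. The median difference of the list's 57 tiles at 20% or above was -3.72 points with 3 tiles higher by 20 points, and the median of all such tiles was 2.44 points.

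Of the neural lists, the neural transcription factors had no member in the 8 genes with a tile at 20% or above, which hold only 14 such tiles, with a median of 3.05 points and no tile higher by 20 points. Genes of neuronal function had members in 4 of 25, and in 3.28% of their 122 tiles at 20% or above, while 10 tiles were higher by 20 points and the median difference was 1.87 points. Rbfox3, whose product is the NeuN antigen, had a tile with 55.8% for R1 and 25.6% for Tet/Tet ESCs, and 82.1% for R1 and 11.4% for Tet/Tet neurons. Bdnf, a neurotrophin gene, had 45.8% and 16.5%, with 98.6% for R1 and 27.6% for Tet/Tet neurons, although 4 of its 8 sites were higher in Tet/Tet ESCs and only 3 lower, each from 100% to 0. Ncam1, a cell adhesion gene, had 27.5% and 6.25%, and Gad2, an enzyme of GABA synthesis, 55.6% and 35.0%. At Ncam1 2 of 6 sites were lower, 1 was higher and 3 were equal, and at Gad2 3 were lower and 3 higher. In each of these tiles 1 site went from 100% to 0. The other 5 averaged 13% and 7.5% at Ncam1, and 46.7% and 42% at Gad2. By tiles at 20% or above, members were 3 of 21 in pluripotency genes (14.3%) and 4 of 38 in germline genes (10.5%). They were 6 of 57 in the methylation machinery (10.5%) and 3 of 72 in imprinted genes (4.17%). The background of all such tiles is 4.44%. Over these 6 lists the members were scattered over genes, with 3 in Dnmt3b, 2 in Klf5 and 1 in each of the others.

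In both neuron libraries the members had levels close to those of other methylated tiles. In R1 neurons the 2510 members with at least 5 of their sites listed averaged 88.5% ± 14.5 (SD over tiles), and the 54043 tiles that were at 20% or above in R1 ESCs and within 20 points in the ESC lines averaged 90.5% ± 9.01. In Tet/Tet neurons 1956 members averaged 17.5% ± 12.6, against 18.7% ± 8.82 for 43163 such tiles. The mean number of sites per tile was 6.52 in members and 7.62 in the others. Members in gene bodies stood at 90.3% and 17.9%, those between genes at 87.2% and 17.6%, and those at promoters at 79.3% and 13.6% in R1 and Tet/Tet neurons. Other promoter tiles were at 88.5% and 17.7%.

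Tiles were also compared at a like ESC level. With the mean of both ESC levels between 40% and 60%, members averaged 90.3% and other tiles 90.6% in R1 neurons, and both averaged 17.8% in Tet/Tet neurons. Between 20% and 40% the values were 85.5% and 87.0% in R1 neurons, and 16.7% and 17% in Tet/Tet neurons. Between 60% and 80% they were 93.3% and 92.8%, and 19.3% and 20.1%. The largest gap was in Tet/Tet neurons between 80% and 90%, where 100 members averaged 18.9% ± 15.8 and 2225 other tiles 24.7% ± 12.1. When tiles were instead grouped by the R1 ESC level, members were lower than the others in R1 neurons in each class, by the most between 20% and 40%, with 78.5% against 86.9%, and by the least at 80% to 100%. This gap depends on which ESC measure sets the classes, since members are by the rule lower in Tet/Tet ESCs than other tiles of the same R1 level.

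**Figure D5:**
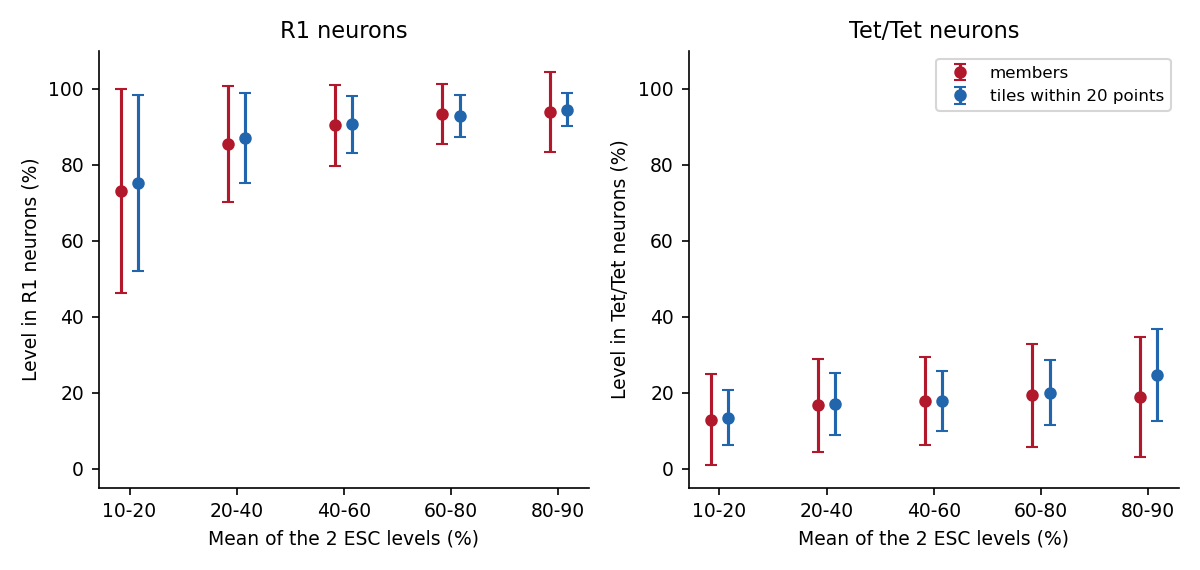
Level in R1 neurons (left) and Tet/Tet neurons (right), in percent (y axis), of members and of tiles within 20 points in the ESC lines, by the mean of the R1 and Tet/Tet ESC levels (x axis, %). Points are means over tiles and bars are SDs over tiles; between 40% and 60% members and other tiles stand at 90.3% and 90.6% in R1 neurons and both at 17.8% in Tet/Tet neurons.

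The difference between the neuron libraries held at nearly all members, as it did elsewhere. Tet/Tet neurons were lower than R1 neurons by at least 20 points in 1802 of the 1839 members measured in both, which is 98.0%. The background is 99.5% of the tiles at 20% or above in R1 ESCs, and 76.5% of all tiles measured in both. The mean difference was -71.0 points in members and -71.8 points in the tiles within 20 points. Only 1 member was higher in Tet/Tet neurons by 20 points, where the background is 0.0125%.

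Larger shares of the members than of other tiles lay in the tails of both neuron distributions. In R1 neurons 77 members (3.07%) were under 50%, against 0.862% of the tiles within 20 points, and 31 members (1.24%) were under 20%, against 0.139%. Of the 77, 29.9% lay at promoters, compared with 5.22% of the members at 90% or above in R1 neurons. The 31 members under 20% averaged 39.9% for R1 and 6.45% for Tet/Tet ESCs, and 10.4% for R1 neurons, and the 24 of them measured in Tet/Tet neurons averaged 4.80%, all under 20%. In Tet/Tet ESCs 26 of the 31 were under 20%. In Tet/Tet neurons 28.1% of members were under 10% and 5.78% were at 40% or above, against 11.3% and 2.36% of the tiles within 20 points.

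Among members with at least 10 sites in all 4 tables, the lowest in Tet/Tet neurons were a tile near the start of Mdfic, a regulator of MyoD family factors, with 23.1% for R1 and 0.89% for Tet/Tet ESCs, and 26.8% for R1 and 1.15% for Tet/Tet neurons, the Pls3 tile, and a tile in Sp9, a zinc finger transcription factor of the developing forebrain, with 23.8%, 0.77%, 17.7% and 2.61%. The highest was a soft-masked island in Macrod2, with 33.5% and 12.8% in the ESC lines, 93.0% for R1 and 71.9% for Tet/Tet neurons. The tile near Npbwr1 and a tile in Zdhhc15, a palmitoyltransferase gene on chromosome X, followed with 54.4% and 52.4% in Tet/Tet neurons. Over only the sites that R1 neurons also list, these were 36.0% near Npbwr1 (16 sites) and 36.6% in Zdhhc15 (12 sites), and 71.9% in Macrod2 (12 sites). The 3 highest were soft-masked over 94.0% to 100% of their length, and the 3 lowest over 6.70% to 24.5%.

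The threshold cut through a continuous range. Among tiles with at least 20 sites, the members nearest to it fell by 20.3 points near Tbx18, fell by 21 points near 5730507C01Rik and fell by 23.0 points near Rsrc1. The tiles just outside it fell by 19.98 points near Vmn1r40, fell by 19.95 points at BC004004 and fell by 19.88 points in Vezf1. The intergenic tiles called near a gene are named by the closest protein-coding gene start. That start lies 108241 bp away for Tbx18, 351009 bp for 5730507C01Rik, 144889 bp for Rsrc1 and 12039 bp for Vmn1r40.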

How the data were processed

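RRBS of 4 mouse samples was analysed, 1 library for each genotype (R1, Tet/Tet) as ESCs and as neurons. The authors trimmed reads, mapped them to mm10, called CpGs and deposited a percent value per CpG, the reads with cytosine out of all its reads. The submitters' processing notes name Trim Galore 0.6.4, FastQC 0.11.8, Bismark 0.19.0 and MethylDackel 0.3.0. No read counts come with these values and they are not normalized between libraries, so every site was weighted equally, depth is unknown, and no p-value or interval on a level was computed. The ESC tables listed 2311939 (R1) and 2936767 (Tet/Tet) sites, of which 1992568 were shared on chromosomes 1 to 19, X and Y.

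Differences within 1e-06 points of the threshold counted as reaching it. A neuron level needed at least 5 of the tile's sites. Genes were those of GENCODE release M21, and sequence was the RefSeq GRCm38 assembly, which is mm10. Islands had to exceed 200 bp, reach 50% GC and hold more than 0.6 of the CpGs expected from base composition, and were found by scoring each CpG 17 and each other base -1, which gave 23754 islands. Calculations used Python 3.11.15, numpy 2.4.6, scipy 1.17.1 and numba 0.67.0, with figures by matplotlib 3.10.9, and were tested on simulated data.

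The tiles and the gene lists were chosen with earlier results of these data known. Named by rule were the 5 runs and the 5 protein-coding genes with the most members, the 6 largest falls with at least 20 sites, the 5 largest at a gene start with at least 10 sites, the 3 highest and 3 lowest in Tet/Tet neurons, the 3 tiles on either side of the threshold, and up to 4 genes per list. The values of 2 tiles are not reported here. Comparison at a like mean of both ESC levels and the count of members under 20% in R1 neurons were added after the data were seen. The 7 alternatives changed the minimum number of sites, the sites used, the size of the fall, the tile borders, the average and the chromosomes.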

Additional observations from a re-analysis of the deposited data

Results flagged for a closer look

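A single member went the other way in neurons, lower in Tet/Tet ESCs and higher in Tet/Tet neurons by 20 points or more. It is a tile of 5 sites on chromosome 18 from position 78861001, in the body of Setbp1, a SET-binding protein gene, and was chosen after its values were seen. It stood at 68.6% for R1 and 23.3% for Tet/Tet ESCs, and 48.6% for R1 and 80% for Tet/Tet neurons, a neuron difference of 31.4 points. The opposite direction rests on 1 library per condition and was not tested.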

How the results depend on the processing

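No paired analysis was possible because each condition had 1 library and no test was made. Of 49 repeats of 7 values under 7 alternatives, 31 stayed within the set range (1.5 times for the count, the exact 95% binomial interval for shares, 2 points for means), 17 moved and 1 changed sign. The number of members was 230 with a minimum of 10 sites, 367 with only sites inside MspI fragments of 40 to 220 bp, 1019 with a fall of at least 30 points and 1768 with only sites listed in all 4 tables. With a minimum of 10 sites 43.5% of members were intergenic and 11.3% in CpG islands. R1 neurons averaged 86.3% and Tet/Tet neurons 20.6% under that minimum. The mean ESC difference at 2 to 5 kb from a member, members included, was then -2.98 points. With sites inside MspI fragments 62.7% were intergenic and 13.9% in islands, and the neurons averaged 84.9% and 21.6%. Sites in all 4 tables gave 1.64% in islands, and a fall of 30 points left 1.96% with another member within 5 kb. With the median of the sites, R1 neurons averaged 93.9%, Tet/Tet neurons 15.1%, and the difference at 2 to 5 kb became 0.24 points. The causes were not tested, apart from the stricter rules admitting fewer tiles. Location and island shares therefore hold for the rule used, and not for members with many sites or sites inside fragments. For those members no matching background of other tiles is given here. The number of sites per tile limits what single members show, since 67.4% had 5 or 6.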

Other observations

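Apart from Setbp1, 4 further members described here stood higher in Tet/Tet than in R1 neurons, by 1.49 to 5.37 points, and 3 of these lie near gene starts and were low in both neuron libraries. At Kpna6, an importin gene, the level was 82.7% for R1 and 2.96% for Tet/Tet ESCs, and 2.35% for R1 and 7.72% for Tet/Tet neurons. In the same order it was at Auts2 43.8%, 2.50%, 1.19% and 4.17%. At E2f3, a cell cycle transcription factor gene, it was 21.4%, 0.89%, 3.76% and 5.25%. The remaining tile, in Pdzrn4, was high throughout, with 90%, 69.4%, 96.7% and 100%. These tiles were listed after their values were seen, and each rests on 5 to 8 sites.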
